A study of Mus musculus with 4 samples.

Results

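The 35 genes described here encode the enzymes and regulators of cholesterol and fatty acid synthesis. They were taken by symbol from the deposited table of 23390 gene models, and all 35 passed the minimum of 40 counts summed over the 4 libraries, as did 13085 of the models. Fads2 had the fewest counts of them, at 448, so none lay near that minimum. The libraries are from mouse osteoclast cultures, osteoclasts being the multinucleated cells that resorb bone. Macrophages were grown from the bone marrow of wild-type C57BL/6J mice in medium conditioned by L929 cells, a fibroblast line that supplies the growth factor M-CSF (equivalent to 20 ng/ml). They then received the osteoclast-inducing cytokine RANKL at 40 ng/ml, and RNA was taken at day 4. The BMS-582949 group (2 libraries) had 10 µM of this small-molecule inhibitor of the kinase p38α added to RANKL and M-CSF, and the DMSO group (2 libraries) had RANKL and M-CSF with the solvent. The design text has the compound present for 3 days and the treatment protocol for 4 days. The protocol text is the same for every sample, and the groups follow the treatment label. That label and the table's columns write BMS-582949, while the titles of the treated samples write BMS-584929.

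Animal cells build cholesterol from acetyl-CoA. The mevalonate arm makes the prenyl precursors farnesyl and geranylgeranyl diphosphate, and the later arm closes squalene into the sterol ring and trims it to cholesterol. Farnesyl and geranylgeranyl groups also anchor small GTPases in membranes, and nitrogen-containing bisphosphonates, the drugs used against bone loss, act on osteoclasts by blocking farnesyl diphosphate synthase. Fatty acids are built from the same acetyl-CoA by acetyl-CoA carboxylase and fatty acid synthase and are then elongated and desaturated. The transcription factors SREBP1 and SREBP2 drive both pathways when the escort protein SCAP carries them to the Golgi, and the INSIG proteins hold SCAP back when sterols are plentiful.

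Total counts were 39255925 and 37455168 in the BMS-582949 libraries and 35331889 and 36178333 in the DMSO libraries. Osteoclast markers were present in all 4 libraries. The summed level of 8 of them (among them Acp5, Ctsk and Calcr) was 11840 and 12010 CPM (counts relative to the library's total, scaled by the TMM method) with BMS-582949, against 98230 and 102300 CPM in DMSO, and all 8 were called lower. Of 7 macrophage markers, 4 were called higher and 2 lower, the latter being Cd68 and Csf1r. The 7 summed to 2650 and 2852 CPM with BMS-582949, against 5528 and 5764 CPM in DMSO, mostly from those 2. Calls of markers here are on the TMM scale, where 29.7% of all tested genes were called lower and 30.5% higher. Of 6 stromal markers, 5 had enough counts to test and 4 of these were called lower. The 6 summed to 460.3 and 467.3 CPM with BMS-582949 and 715.0 and 659.2 CPM in DMSO, mostly from Col1a1 and Col1a2. Lum had no counts with BMS-582949 and 4 in each DMSO library. Dcn averaged 0.44 CPM with BMS-582949 and 0.66 CPM in DMSO. Of 6 adipocyte markers, Plin1, Cidec, Lep and Retn were at 0 in every library, Adipoq had 2 counts in all, and Adipor2, which many cell types express, was called lower by 0.25 on the log2 scale. The 4 T and NK cell markers were at 0 in every library. The other lists, for neutrophils, dendritic, B, erythroid and mast cells, summed to at most 33.85 CPM in any library. The part of the osteoclast, macrophage and stromal markers in the results below was not tested. In whole cultures, fewer cells of a type and less RNA per cell cannot be told apart.

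Of the 19 cholesterol synthesis genes, 13 were called lower with BMS-582949 and none higher, while of the 8 genes of fatty acid synthesis, elongation and desaturation 4 were called higher and 3 lower. With libraries scaled by size only, these counts were 8 lower and 4 higher of the 19, and 1 lower and 4 higher of the 8. That scaling called 17.0% of all tested genes lower and 51.0% higher. With TMM, 21 of the 35 genes were called lower and 4 higher, and 10 were not called. A call is an adjusted p under 0.05 by edgeR's quasi-likelihood test, with Benjamini-Hochberg adjustment over all 13214 tested genes. Over all tested genes, 29.7% were called lower with TMM and 30.5% higher, 60.2% in either direction. The median log2 fold change of the 35 genes, BMS-582949 minus DMSO, was -0.38, and that of all tested genes was 0.03. At a change of at least 2-fold, 6 were called lower (Insig1, Scd2, Fdps, Hmgcs1, Lpin1 and Insig2) and 1 higher (Fads1), where 11.3% and 9.94% of all tested genes were. Both BMS-582949 libraries lay below both DMSO libraries for 24 of the 35 genes and above them for 4, shares to be read against 38.7% and 41.4% of all tested genes. Separate animals or cultures are not stated for the 2 libraries of each group, and the p-values therefore cover only library-to-library spread, which may be technical.

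**Figure D1:**
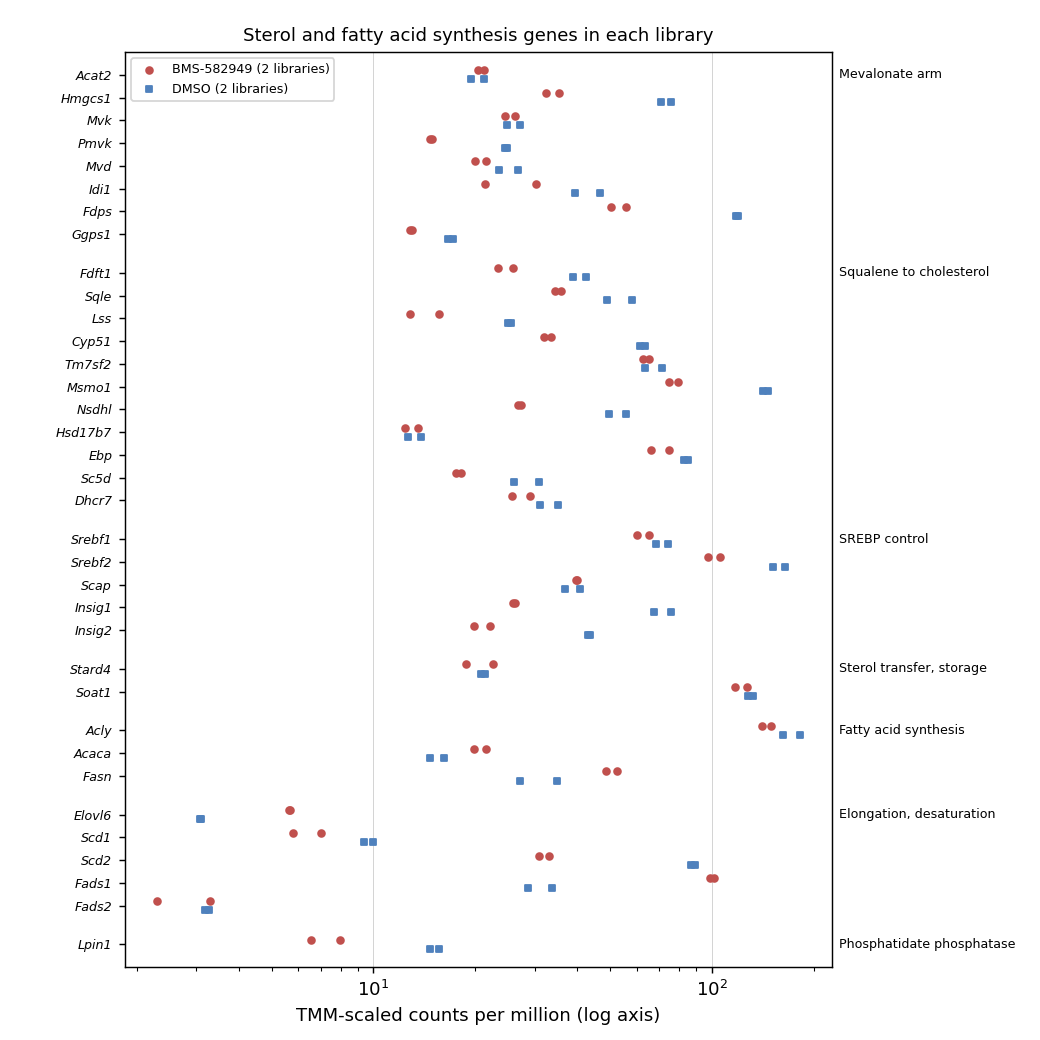
Level of each of the 35 genes in each library, as TMM-scaled CPM on a log axis, with circles for the 2 BMS-582949 libraries and squares for the 2 DMSO libraries. Most cholesterol synthesis genes have both circles left of both squares, while Acaca, Fasn, Elovl6 and Fads1 have them on the right.

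The direction of the smaller changes rests on the scaling. TMM sets aside the genes with the largest and smallest ratios between libraries and those of highest and lowest level. It takes the remaining genes as unchanged on average, while 60.2% of all tested genes were called here. Scaling by library size alone moved the median of all tested genes to 0.41. With library size only, 13 of the 35 genes were called lower and 12 higher, where 17.0% and 51.0% of all tested genes were. The distance between the median of the 35 genes and that of all genes was -0.41 under either scaling. A change of scaling shifts all genes by about the same amount, so this distance cannot tell which scaling is right. The 35 genes took 0.158% (exact Clopper-Pearson 95% interval 0.157% to 0.160%) and 0.155% (0.154% to 0.157%) of all counts with BMS-582949, against 0.160% (0.158% to 0.161%) and 0.166% (0.165% to 0.167%) in DMSO, intervals that cover counting error only. Their summed TMM-scaled level was 1374 and 1376 CPM with BMS-582949 and 1813 and 1901 CPM in DMSO. Hmgcs1, Pmvk, Fdps, Fdft1, Lss, Cyp51, Msmo1, Nsdhl, Srebf2, Insig1, Insig2, Scd2 and Lpin1 were called lower under both scalings, and Acaca, Fasn, Elovl6 and Fads1 were called higher under both. Srebf1, called lower with TMM, was called higher with library size only, as were Acat2, Mvk, Tm7sf2, Hsd17b7, Scap, Stard4 and Soat1, which were not called with TMM. Changes below are on the TMM scale.

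**Figure D2:**
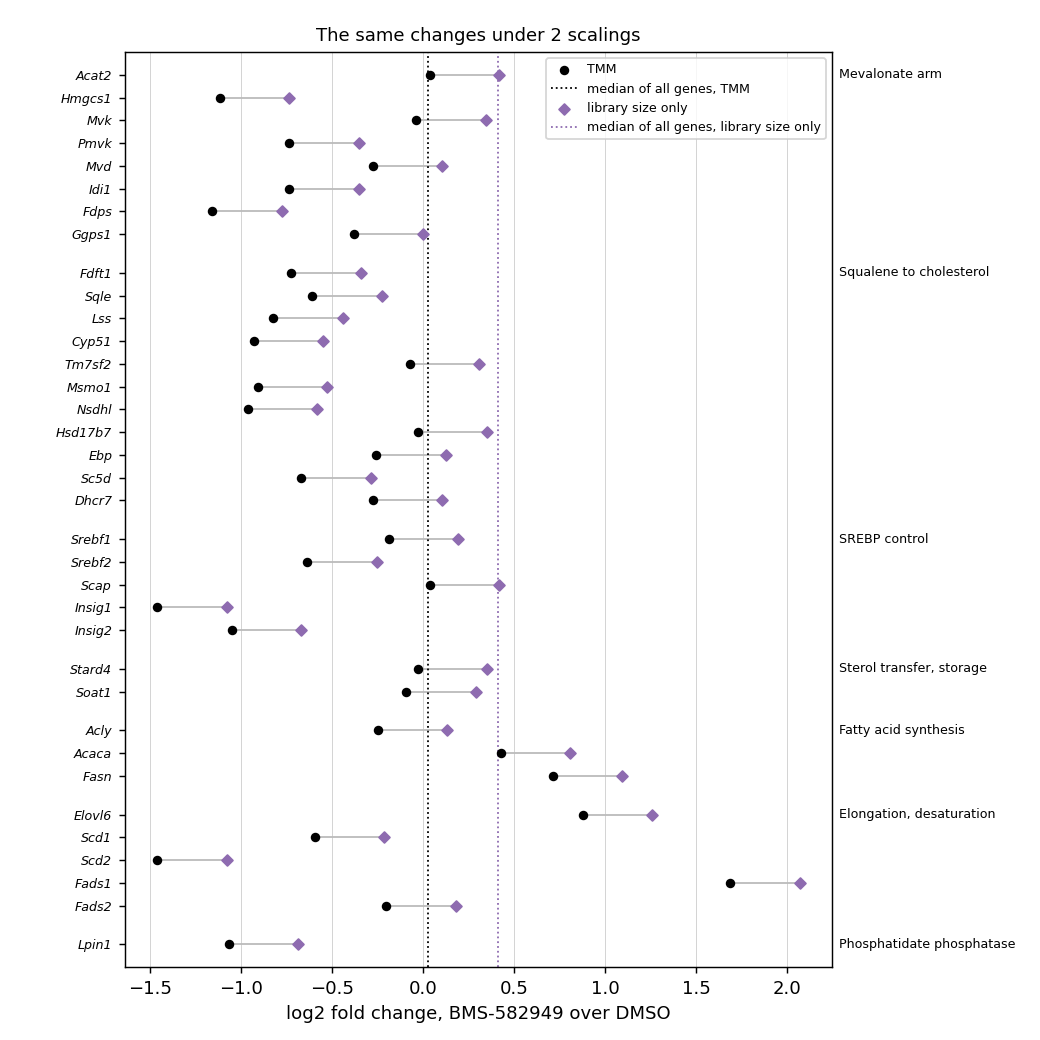
Log2 fold change (BMS-582949 over DMSO) of each gene with TMM scaling (circles) and with library size only (diamonds), with dotted lines at the median of all tested genes under each. Library size only moves every gene to the right by about the same amount as the median of all genes, which is 0.03 with TMM and 0.41 without.

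Promoter sequences are shown for the gene with the largest called fall in the mevalonate arm, in the later sterol arm and among the SREBP regulators, and for the 2 largest called rises, taking genes with a single window in the RefSeq table (GRCm38.p6). Fdps, which fell further than Hmgcs1, and Fads1, which rose the most, had no window. Each window runs from 250 bases before to 50 after the gene's start, on the gene's strand and written 5′ to 3′. Capitals mark matches on either strand to the core of the sterol response element (TCACNCCAC), the CCAAT box (CCAAT) and the GC box (GGGCGG), the last 2 being bound by the SREBP partners NF-Y and Sp1. The Hmgcs1 window (chr13:119690101-119690400, plus strand) holds 1 sterol response core, 4 CCAAT boxes and 3 GC boxes. That of Nsdhl (chrX:72918271-72918570, plus strand) holds 4 CCAAT boxes and 1 GC box, and that of Insig1 (chr5:28071162-28071461, plus strand) 1 and 3. The windows of the rising genes were Elovl6 (chr3:129532136-129532435, plus strand), with no match, and Fasn (chr11:120824498-120824797, minus strand), with 3 CCAAT boxes, 2 of which overlap as a palindrome.
Hmgcs1: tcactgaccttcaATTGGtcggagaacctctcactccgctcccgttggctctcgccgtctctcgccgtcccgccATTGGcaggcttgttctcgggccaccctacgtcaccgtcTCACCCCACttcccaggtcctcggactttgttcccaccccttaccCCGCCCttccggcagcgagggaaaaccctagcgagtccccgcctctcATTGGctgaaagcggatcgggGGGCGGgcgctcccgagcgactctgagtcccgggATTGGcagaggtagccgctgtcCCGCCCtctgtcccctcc
Nsdhl: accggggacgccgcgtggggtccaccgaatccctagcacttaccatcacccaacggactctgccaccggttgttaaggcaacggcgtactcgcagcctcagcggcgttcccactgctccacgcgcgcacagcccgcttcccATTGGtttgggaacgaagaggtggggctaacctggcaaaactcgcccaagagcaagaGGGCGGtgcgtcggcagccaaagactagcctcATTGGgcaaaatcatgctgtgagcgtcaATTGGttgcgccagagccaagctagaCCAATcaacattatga
Insig1: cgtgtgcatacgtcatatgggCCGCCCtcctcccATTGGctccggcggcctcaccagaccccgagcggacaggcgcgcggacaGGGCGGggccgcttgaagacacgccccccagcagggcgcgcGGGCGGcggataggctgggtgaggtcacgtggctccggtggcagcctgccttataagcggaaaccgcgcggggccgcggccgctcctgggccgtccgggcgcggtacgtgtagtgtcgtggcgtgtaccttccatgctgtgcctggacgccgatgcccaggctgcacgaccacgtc
Elovl6: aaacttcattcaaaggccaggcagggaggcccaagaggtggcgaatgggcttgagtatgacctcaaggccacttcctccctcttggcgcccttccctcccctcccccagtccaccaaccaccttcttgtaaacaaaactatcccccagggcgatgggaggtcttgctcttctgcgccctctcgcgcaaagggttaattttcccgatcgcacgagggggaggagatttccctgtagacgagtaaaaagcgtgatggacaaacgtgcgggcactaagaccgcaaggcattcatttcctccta
Fasn: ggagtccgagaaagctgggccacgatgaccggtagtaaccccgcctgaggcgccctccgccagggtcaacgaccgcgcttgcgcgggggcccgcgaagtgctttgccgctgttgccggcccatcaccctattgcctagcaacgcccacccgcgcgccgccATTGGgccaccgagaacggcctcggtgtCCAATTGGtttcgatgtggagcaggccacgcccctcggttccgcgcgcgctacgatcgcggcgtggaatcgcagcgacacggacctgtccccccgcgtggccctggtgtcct

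The RefSeq table had windows for 28 of the 35 genes, 36 windows in all because some genes have several. It had none for Fads1, Scd1, Scd2, Fdps, Fdft1, Sqle and Stard4, which the counts below leave out. A CCAAT box was found in 23 of the 36 windows (63.9%), against 37.4% of all 32817 promoter windows of the same length. A GC box was found in 26 of the 36 windows (72.2%), against 35.6% of all windows. An exact match to the sterol response core was found in 1 of the 36, that of Hmgcs1, against 1.24% of all windows. Other forms of that element, and sites outside the windows, were not searched for. By call, a CCAAT box was in a window of 15 of the 16 genes called lower, 1 of the 3 called higher and 6 of the 9 not called, and a GC box in 13 of 16, 0 of 3 and 9 of 9. These counts are per gene, with a match in any of its windows. The shares of all windows are per window and cover every gene in the RefSeq table, whether or not it had counts here. Those shares are therefore no matched background for the 36 windows or for the counts per gene. These matches describe letters in the windows and were not tested against the changes.

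In the mevalonate arm, 5 of 8 genes were called lower and none higher, with a median log2 fold change of -0.56. With library size only, 3 were lower and 2 higher, beside 17.0% and 51.0% of all tested genes. Fdps, which encodes farnesyl diphosphate synthase (chromosome 3, 89093588 to 89101959 on GRCm38), had 50.4 and 55.9 CPM with BMS-582949, against 118 and 119 CPM in DMSO. It fell by 1.16 ± 0.07 on the log2 scale (SE, edgeR adjusted p = 2.8e-08), the largest fall of the arm. Exons of Fdps overlap another model on the same strand, Gm43738, over 26.7% of their length, and that model was at 0 in all 4 libraries.

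Hmgcs1, the HMG-CoA synthase whose promoter is shown above, had 32.3 and 35.4 CPM with BMS-582949, against 76.0 and 70.8 CPM in DMSO (log2 fold change -1.12 ± 0.08 SE, adjusted p = 1.3e-07). The 2 groups were well apart in both genes. Pmvk, the phosphomevalonate kinase, had 14.9 and 14.7 CPM with BMS-582949, against 24.7 and 24.5 CPM in DMSO (-0.74 ± 0.11 SE). Idi1, the isopentenyl diphosphate isomerase, had 30.2 and 21.4 CPM with BMS-582949, against 46.6 and 39.3 CPM in DMSO (-0.73 ± 0.15 SE). Its 2 BMS-582949 libraries were the most uneven of the arm, and its call ended with library size only (adjusted p = 0.069). Ggps1, the geranylgeranyl diphosphate synthase, had 12.8 and 13.0 CPM with BMS-582949, against 17.1 and 16.6 CPM in DMSO (-0.38 ± 0.11 SE, adjusted p = 0.011). Its change was -0.0013 with library size only, and the call also ended without BMS-582949 replicate 1 (-0.38, adjusted p = 0.059).

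Of the other genes of the arm, 3 were not called. The thiolase gene Acat2 had 21.3 and 20.4 CPM with BMS-582949, against 19.4 and 21.2 CPM in DMSO. The mevalonate kinase gene Mvk had 24.5 and 26.2 CPM with BMS-582949, against 24.9 and 27.2 CPM in DMSO. The groups overlapped in these 2 genes. Mvd, the mevalonate diphosphate decarboxylase, had 20.0 and 21.5 CPM with BMS-582949, against 23.6 and 26.7 CPM in DMSO, without overlap and with an adjusted p of 0.056 (-0.28, and 0.10 with library size only).

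From squalene to cholesterol, 8 of 11 genes were called lower and none higher, with a median of -0.67. With library size only, 5 were lower and 2 higher, beside 17.0% and 51.0% of all tested genes. Nsdhl, a sterol dehydrogenase that helps to remove methyl groups, had 27.4 and 26.8 CPM with BMS-582949, against 49.8 and 55.9 CPM in DMSO, which is -0.96 ± 0.09 on the log2 scale (SE, adjusted p = 2e-06). Cyp51, the lanosterol demethylase, had 33.5 and 32.0 CPM with BMS-582949, against 61.2 and 63.7 CPM in DMSO (-0.93 ± 0.08 SE). Msmo1, the methylsterol monooxygenase that works with Nsdhl, had 74.7 and 79.4 CPM with BMS-582949, against 142 and 147 CPM in DMSO (-0.91 ± 0.06 SE). These 3 genes act on the methyl groups of lanosterol, and in each the groups were far apart relative to the spread within them.

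Fdft1, the squalene synthase at which the sterol branch begins, had 23.3 and 25.9 CPM with BMS-582949, against 42.5 and 38.9 CPM in DMSO (-0.72 ± 0.11 SE). Its exons overlap those of the antisense gene Ctsb over 18.3% of their length. Ctsb, a cathepsin gene, had 3774 and 4023 CPM with BMS-582949, against 5977 and 6377 CPM in DMSO (-0.66, called lower), and whether the counting used strand is not given in the sources used here. Sqle, the squalene epoxidase, had 35.9 and 34.3 CPM with BMS-582949, against 49.2 and 58.0 CPM in DMSO (-0.61 ± 0.09 SE). Lss, the lanosterol synthase that closes the ring, had 15.7 and 12.8 CPM with BMS-582949, against 25.5 and 25.0 CPM in DMSO (-0.82 ± 0.13 SE). All 3 were lower in both BMS-582949 libraries, and with library size only the call for Sqle ended (adjusted p = 0.053).

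Of the genes of the last steps, Sc5d and Ebp were called lower. Sc5d, the sterol desaturase, had 18.2 and 17.5 CPM with BMS-582949, against 26.0 and 30.8 CPM in DMSO (-0.67 ± 0.12 SE), a call that also ended with library size only (adjusted p = 0.051). The sterol isomerase gene Ebp had 66.0 and 74.6 CPM with BMS-582949, against 85.2 and 82.8 CPM in DMSO (-0.26 ± 0.07 SE, adjusted p = 0.0097). Without BMS-582949 replicate 1 the change of Ebp was -0.18 (adjusted p = 0.084), and its direction turned with library size only. Dhcr7, the reductase that finishes a route to cholesterol, had 25.6 and 29.0 CPM with BMS-582949, against 31.1 and 35.1 CPM in DMSO, and was not called (-0.28, adjusted p = 0.053). Its direction turned with library size only (0.10). The reductase genes Tm7sf2 and Hsd17b7 overlapped between groups, at log2 fold changes of -0.07 ± 0.08 and -0.03 ± 0.12 (SE).

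**Figure D3:**
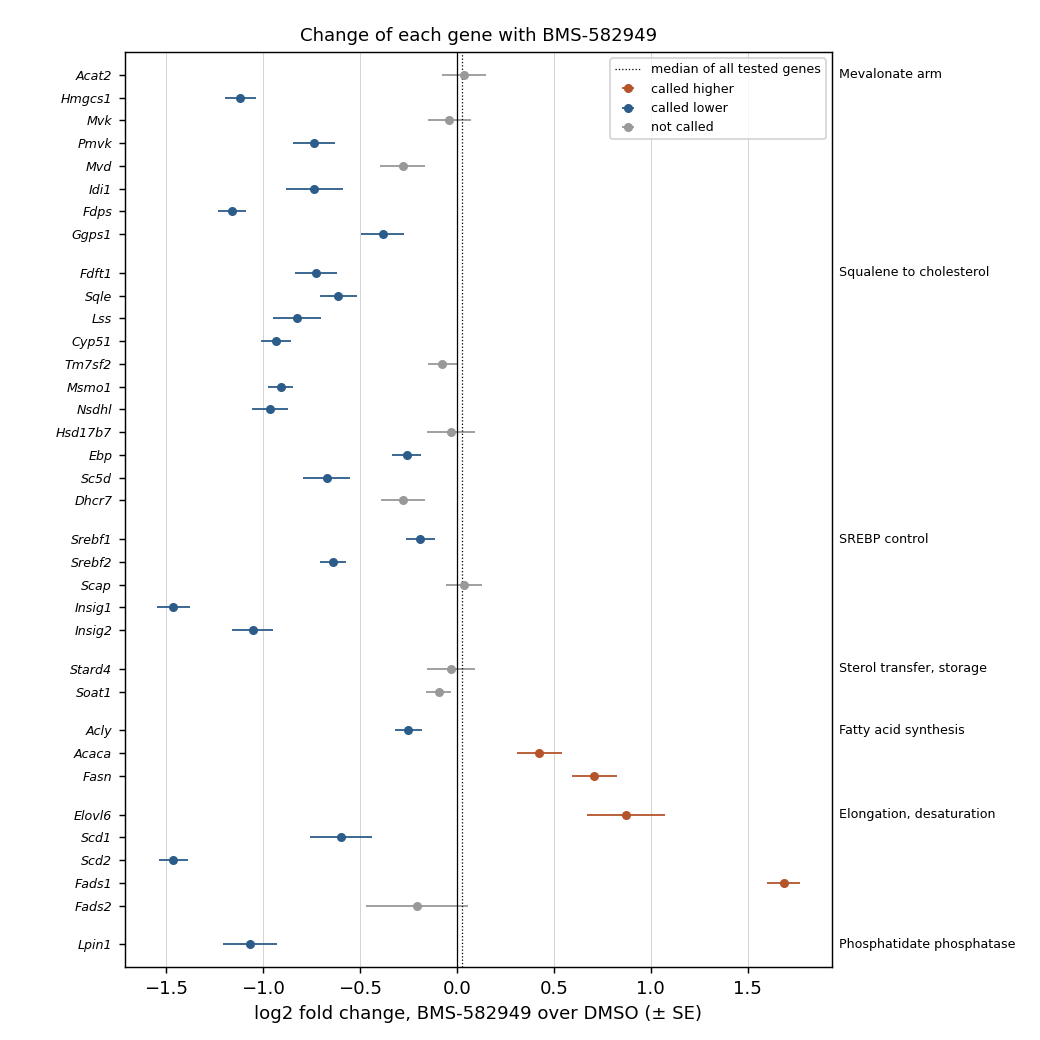
Log2 fold change with its standard error for each gene, BMS-582949 over DMSO, ordered by role, with the median of all tested genes as a dotted line. Insig1 and Scd2 fall furthest (-1.46 each), and falls of about 1 are those of Fdps, Hmgcs1, Nsdhl, Cyp51, Msmo1, Insig2 and Lpin1. The other called falls are smaller, and the called rises lie among the fatty acid genes.

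Of the 5 regulators of the pathway, 4 were called lower and none higher. With library size only, 3 were lower and 2 higher, beside 17.0% and 51.0% of all tested genes. Insig1, the sterol-sensing retention protein (chromosome 5, 28071363 to 28078662), had 25.8 and 26.2 CPM with BMS-582949, against 67.4 and 75.9 CPM in DMSO. Its log2 fold change was -1.46 ± 0.09 (SE, adjusted p = 1.8e-08), and 7.20% of all tested genes fell at least as far. Its paralogue Insig2 had 22.1 and 19.8 CPM with BMS-582949, against 43.6 and 43.2 CPM in DMSO (-1.05 ± 0.11 SE). Per exon length, Insig1 stood at 1.31 and 1.49 times Insig2 with BMS-582949 and at 1.73 and 1.97 times in DMSO.

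Srebf2, which encodes the factor that favours cholesterol genes, had 106 and 97.7 CPM with BMS-582949, against 152 and 165 CPM in DMSO (-0.64 ± 0.07 SE, adjusted p = 5.2e-06). Srebf1, which encodes the factor that favours fatty acid genes, had 60.1 and 65.1 CPM with BMS-582949, against 68.5 and 74.0 CPM in DMSO (-0.19 ± 0.07 SE, adjusted p = 0.045). The small change of Srebf1 was not called without BMS-582949 replicate 1 (-0.13, adjusted p = 0.22) or without DMSO replicate 2 (-0.13, adjusted p = 0.27). It was also not called with upper-quartile scaling (-0.13, adjusted p = 0.14) or without the low-count filter (-0.17, adjusted p = 0.071), and with library size only it was called higher (0.19, adjusted p = 0.03). Per exon length, Srebf1 stood at 0.724 and 0.849 times Srebf2 with BMS-582949 and at 0.575 and 0.572 times in DMSO. Scap had 40.0 and 39.7 CPM with BMS-582949, against 36.8 and 40.9 CPM in DMSO, and was not called.

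The 2 genes of sterol handling after synthesis were not called, and with library size only both were called higher, as were 51.0% of all tested genes. Stard4, a cytosolic sterol carrier, had 22.5 and 18.7 CPM with BMS-582949, against 21.4 and 20.8 CPM in DMSO. Soat1, the enzyme that esterifies cholesterol for storage, had 117 and 127 CPM with BMS-582949, against 132 and 128 CPM in DMSO (-0.09 ± 0.07 SE, adjusted p = 0.24). The groups overlapped for Stard4, while for Soat1 both BMS-582949 libraries were lower by a small margin.

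The 3 genes that make palmitate went in different directions. Fasn, the fatty acid synthase, had 52.5 and 48.7 CPM with BMS-582949, against 27.1 and 34.8 CPM in DMSO, a rise of 0.71 ± 0.11 on the log2 scale (SE, adjusted p = 0.00016). Acaca, the carboxylase that makes malonyl-CoA, had 21.5 and 19.9 CPM with BMS-582949, against 16.1 and 14.7 CPM in DMSO (0.43 ± 0.12 SE, adjusted p = 0.007). Without BMS-582949 replicate 1 the rise of Acaca was 0.36 with an adjusted p of 0.052. Acly, the citrate lyase that supplies cytosolic acetyl-CoA to both pathways, had 149 and 140 CPM with BMS-582949, against 162 and 182 CPM in DMSO (-0.25 ± 0.07 SE, adjusted p = 0.0085). Without DMSO replicate 2 the change of Acly was -0.16 (adjusted p = 0.078), and its direction turned with library size only.

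The largest changes among the fatty acid genes were in the desaturases, and in opposite directions. Fads1, the desaturase that completes arachidonic acid (chromosome 19, 10182888 to 10196877), had 98.8 and 102 CPM with BMS-582949, against 28.7 and 33.6 CPM in DMSO. It rose by 1.69 ± 0.08 on the log2 scale (SE, adjusted p = 4.5e-09), and 3.07% of all tested genes rose at least as far. Fads2, the desaturase that acts before it in the same route and lies in the same gene cluster (chromosome 19, 10062765 to 10101746, on the other strand), had 3.29 and 2.29 CPM with BMS-582949, against 3.18 and 3.26 CPM in DMSO, with overlap and no call. Per exon length, Fads1 stood at 20.5 and 30.4 times Fads2 with BMS-582949 and at 6.16 and 7.05 times in DMSO.

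Scd2, a stearoyl-CoA desaturase that makes monounsaturated fatty acids (chromosome 19, 44293674 to 44306864), had 33.1 and 30.8 CPM with BMS-582949, against 86.9 and 89.1 CPM in DMSO (-1.46 ± 0.07 SE, adjusted p = 5.6e-09). Its paralogue Scd1 was lower in level, with 6.99 and 5.79 CPM with BMS-582949, against 9.97 and 9.35 CPM in DMSO (-0.60 ± 0.16 SE, adjusted p = 0.0064). The call for Scd1 ended with library size only (-0.21, adjusted p = 0.26), and how reads that match both paralogues were counted is not given in the sources used here. Per exon length, Fads1 stood at 3.39 and 3.75 times Scd2 with BMS-582949 and at 0.375 and 0.429 times in DMSO, so the order of the pair differed between the groups in every library. Elovl6, the elongase that extends palmitate, had 5.68 and 5.62 CPM with BMS-582949, against 3.09 and 3.07 CPM in DMSO (0.87 ± 0.20 SE, adjusted p = 0.0024). Lpin1, a phosphatidate phosphatase on the way to triglycerides and phospholipids, had 6.54 and 7.94 CPM with BMS-582949, against 14.7 and 15.7 CPM in DMSO (-1.07 ± 0.14 SE, adjusted p = 3.3e-05).

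**Figure D4:**
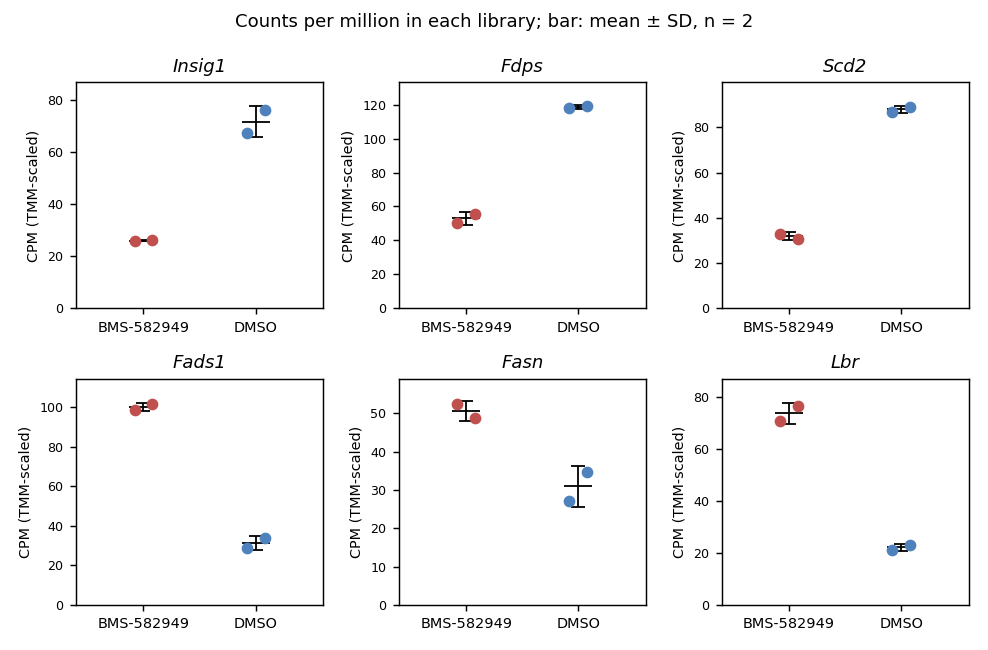
TMM-scaled CPM of 6 genes in each library (points), with the mean and SD of the 2 libraries of each group (bars). Insig1, Fdps and Scd2 are lower in both BMS-582949 libraries, while Fads1, Fasn and the sterol reductase gene Lbr are higher in both.

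A ratio of counts within a library does not depend on scaling. Summed counts of the 19 cholesterol synthesis genes were 1.62 and 1.74 times those of the 8 genes of fatty acid synthesis, elongation and desaturation with BMS-582949, against 2.78 and 2.62 times in DMSO. The summed level of the 19 genes was 602.7 and 618.3 CPM with BMS-582949, against 938.7 and 967.7 CPM in DMSO. That of the 8 fatty acid genes was 371.3 and 355.2 CPM with BMS-582949, against 337.4 and 369.9 CPM in DMSO, with overlap between the groups. Within that sum Fads1 averaged 100 CPM with BMS-582949 and 31.1 CPM in DMSO, and Scd2 31.9 and 88.0 CPM. Acly averaged 145 and 172 CPM. Of the fatty acid counts in the ratio, Fads1 gave 4470 of 16795 and 4304 of 15030 with BMS-582949. In DMSO it gave 891 of 10489 and 1061 of 11673.

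Levels of different genes were compared in RPKM, which are TMM-scaled CPM per kilobase of GENCODE M21 exon. Ebp had the highest level of the 35 genes in each group, at 30.4 ± 2.63 RPKM with BMS-582949 and 36.4 ± 0.727 RPKM in DMSO (SD, n = 2). Acly followed it, at 27.5 ± 1.20 RPKM with BMS-582949 and 32.6 ± 2.63 RPKM in DMSO. Fads1 was the third with BMS-582949, at 20.8 ± 0.425 RPKM, and ranked 22 in DMSO, at 6.47 ± 0.729 RPKM. In DMSO the third was Fdps, at 28.2 ± 0.243 RPKM. The lowest of the 35 were Lpin1 with BMS-582949 (0.749 ± 0.102 RPKM) and Elovl6 in DMSO (0.479 ± 0.0016 RPKM).

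Another 34 genes of lipid synthesis, chosen by role, were all tested, and 14 were called lower and 8 higher, with a median of -0.03. That share lower (41.2%) stands beside 29.7% of all tested genes, and the 8 higher stand beside 30.5% of them. With library size only 7 were lower and 17 higher, where 17.0% and 51.0% of all tested genes were. Lbr, the lamin B receptor, which carries the same sterol reductase activity as Tm7sf2, had 70.7 and 76.5 CPM with BMS-582949, against 21.2 and 23.0 CPM in DMSO. It rose by 1.73 ± 0.09 on the log2 scale (SE, adjusted p = 4.5e-09). Hacd2, a dehydratase of fatty acid elongation, rose by 0.88 ± 0.11 (SE), Me1, the malic enzyme that yields NADPH, by 0.52 ± 0.10 and the acyl-CoA synthetase gene Acsl1 by 0.37 ± 0.06.

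Among those lower, Mid1ip1, which encodes an activator of acetyl-CoA carboxylase, had 94.7 and 111 CPM with BMS-582949, against 261 and 273 CPM in DMSO (-1.38 ± 0.08 SE, adjusted p = 1.4e-08). Acsl3, an acyl-CoA synthetase of lipid droplets and the endoplasmic reticulum, had 9.46 and 9.57 CPM with BMS-582949, against 24.0 and 23.3 CPM in DMSO (-1.31 ± 0.11 SE). Elovl1, an elongase of very long saturated chains, had 247 and 270 CPM with BMS-582949, against 461 and 473 CPM in DMSO (-0.85 ± 0.07 SE). Nus1, a subunit of the prenyltransferase that makes dolichol from farnesyl diphosphate, had 108 and 113 CPM with BMS-582949, against 203 and 195 CPM in DMSO (-0.85 ± 0.06 SE). In these 4 genes the groups were far apart.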

How the data were processed

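Values are the authors' deposited raw counts for each gene model, with 4 columns that name their samples. Trimmomatic 0.36, DESeq2 1.30.1 and HISAT2 2.0.4 are listed with the build GRCm38, per the submitters' processing notes. Which tool counted, on which annotation and with what strand setting is not given in the sources used here. Of 22036 Ensembl identifiers, 22022 had a symbol in GENCODE M21 (GRCm38), and 1354 further models carry the authors' NewGene names. Replicate libraries differed by more than counting noise (chi-square 13.7 per degree of freedom between the BMS-582949 libraries and 9.62 between the DMSO libraries).

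The test was that of edgeR 4.0.16 in R 4.3.3 (filterByExpr at a minimum count of 10, TMM, glmQLFit and glmQLFTest, no covariates, 2 residual degrees of freedom). The code was run on simulated data in which few genes changed, as many up as down. That run does not test the choice of scaling, or data in which 60.2% of genes are called. The SE of a log2 fold change is its size over the square root of F. Alternatives used DESeq2 1.42.0, limma 3.58.1 and other scalings, filters, thresholds and libraries. The genes and lists were chosen with earlier results of these data known. All 35 genes may be named. Of the other 34 lipid genes, the 4 largest called falls and rises with a mean of at least 1 CPM are. Cell-type lists are given as counts and sums.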

Additional observations from a re-analysis of the deposited data

How the results depend on the processing

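With library size only, 13 of the 35 genes were lower and 12 higher, and 7 of the other 34 lipid genes were lower and 17 higher. Under that scaling 17.0% of all tested genes were lower and 51.0% higher, and the median of the 35 was -0.0013. The median was -0.32 with upper-quartile scaling and ran from -0.50 to -0.36 when each library was left out, lowest without BMS-582949 replicate 1. Library size only turned the direction of Mvk (0.34), Tm7sf2 (0.31), Hsd17b7 (0.35), Ebp (0.12), Srebf1 (0.19), Stard4 (0.35), Soat1 (0.29), Acly (0.13), Mvd (0.10), Dhcr7 (0.10) and Fads2 (0.18), by its shift of all genes. A 2-fold minimum left 6 lower and 1 higher of the 35, and 3 lower and 1 higher of the other 34. It left 11.3% of all tested genes lower and 9.94% higher. At an adjusted p under 0.01, 9 of the other 34 were lower, beside 3255 of the 13214 tested genes. Calls with a library left out rest on the assumption that the lone library left in a group varies like those of the other. Mvd and Dhcr7 were called lower under 7 of 15 alternatives, library size only not among them. The replicate block gave 21 lower and 4 higher, beside 29.0% and 29.7% of all tested genes, with no call of the 35 changed. Same-numbered libraries did not deviate together (r = -0.13). A crossed replicate block, added after seeing the data, gave 23 and 4, beside 30.6% and 31.5% of all tested genes. With 2 libraries a group, small changes cannot be separated from the spread between libraries.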
